A study of Homo sapiens with 6 samples.

Results

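The 10 transcription regulators of the cellular stress response described here are DDIT3 (which encodes CHOP), ATF3, ATF4, ATF5, CEBPB, CEBPG, CEBPD, JDP2, NFIL3 and NUPR1. They were taken by gene name from the deposited table, where each had 1 row, and make up 10 of its 57820 annotated genes. Polyadenylated RNA was sequenced from U2OS, an established human osteosarcoma cell line, in 3 libraries after 4 h with 0.05% DMSO, the solvent, and in 3 libraries after 4 h with 5 µM NMS-873. NMS-873 inhibits VCP (p97) allosterically; VCP is an ATPase that extracts ubiquitylated proteins from membranes and complexes, among them misfolded proteins of the endoplasmic reticulum (ER). All libraries came from this 1 unmodified line, and the labels do not say whether those of a treatment came from separate cultures. The p-values therefore cover the spread among these libraries alone, part or all of which may be technical.

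When unfolded proteins accumulate in the ER or amino acids run short, kinases phosphorylate the translation factor eIF2, general protein synthesis slows, and the mRNA of ATF4 is translated more. ATF4 then activates a set of genes that includes DDIT3 and ATF3, and this cascade is called the integrated stress response. All of the 10 except NUPR1, a small chromatin-associated stress protein, are basic leucine zipper (bZIP) factors. These bind DNA as dimers, so the level of each possible partner bears on which dimers can form. ATF4 pairs with C/EBP proteins, CHOP is a C/EBP family member whose altered basic region keeps many of its dimers off the classical C/EBP sites, and ATF3 and JDP2 are closely related partners of JUN proteins.

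The libraries held between 21132311 and 22488952 reads in annotated genes, and 0.359% to 0.386% of all reads were from ERCC spike-in RNA, to which the deposited values are scaled. Among markers of the lineage, SPARC, VIM, COL1A1 and CDH2 were abundant while COL1A2 was below the count minimum and TWIST1 had no read. Of the 11 listed markers 9 were tested. Among these 0 rose and 6 fell, among them THY1, RUNX2 and COL1A1, beside 14.9% higher and 33% lower among all genes. Their median log2 fold change was -0.20, beside -0.10 for all genes tested. The summed level of the 11 was 1199 to 1242 FPKM with DMSO and 1059 to 1105 with NMS-873. Markers of other cell types summed to 117 to 127 FPKM with DMSO and 118 to 130 with NMS-873, nearly all of it KRT18. Of these 11 markers 6 passed the count minimum and 4 had no read, CD3E, ALB and MLANA among them. Besides KRT18, the 6 included EPCAM, at 1.23 to 1.61 FPKM with DMSO, and CDH1, at 0.229 to 0.290. CDKN2A, which is silenced in this line, had no read. In bulk libraries a change in every cell and a larger change in some cells cannot be told apart, nor can fewer cells of a kind and less RNA per cell.

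With NMS-873, 8 of the 10 factors rose and 2 fell. DDIT3 rose 34.4-fold and ATF3 16.2-fold, and NFIL3, CEBPB, CEBPG and NUPR1 rose between 2.12-fold and 3.39-fold. ATF4 and JDP2 rose 1.91-fold and 1.7-fold. ATF5 fell 1.46-fold, while CEBPD, the least abundant factor, met the threshold narrowly and its groups overlapped. These folds are differences on the log2(normalised count + 1) scale, where a normalised count is a read count divided by the size factor of its library, and they were tested with limma, adjusted over the 14889 genes that averaged 10 or more normalised counts; all 10 factors passed that minimum.

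Over all genes tested, 47.9% passed an adjusted p of 0.05, 14.9% higher and 33% lower, so passing the threshold is common here and the size of a change says more. That split turns on the scaling: 2217 genes rose and 4910 fell on the deposited scale, and 3760 and 3108 with scaling to the genes. A change of at least 2-fold that passed was found in 3.85% of genes and in 6 of the 10 factors, all of them higher. The median log2 fold change was 1.16 over the 10 factors and -0.10 over all genes tested. The groups did not overlap and were higher with NMS-873 for 8 factors, against 16.4% of all genes, and lower for 1, against 37.2%. With that scaling, to the genes in place of the spike-in RNA, the median gene moved by 0.10 (log2) to 0.00 and each factor moved up with it: DDIT3 was then 37-fold and ATF4 2.06-fold higher, and ATF5 remained lower, at a log2 fold change of -0.44.

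**Figure D1:**
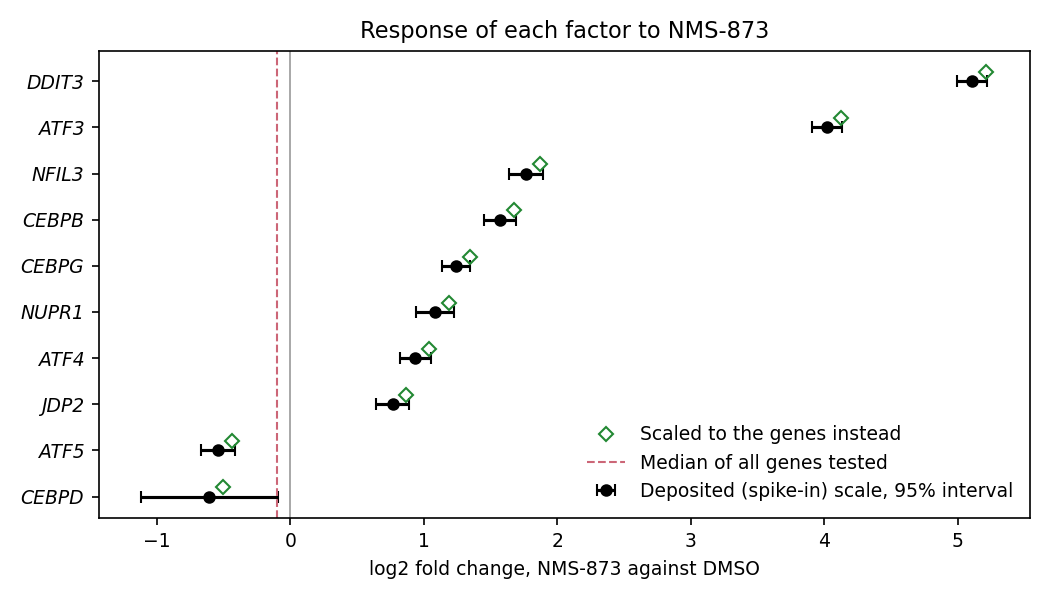
Points give the log2 fold change of each factor (x axis) with its 95% interval from limma, 3 libraries per treatment, on the deposited scale; diamonds give the value after scaling to the genes, and the dashed line the median of all genes tested. DDIT3 and ATF3 lie far to the right at 5.11 and 4.02, 6 factors lie between 0.77 and 1.76, and ATF5 and CEBPD lie left of 0.

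Promoter windows were taken from RefSeq (GRCh38.p14, 250 bases before to 50 after an annotated start). Windows of 8 of the 10 factors were searched, 18 windows in all. Those of CEBPD and NUPR1 were not searched, so nothing is said here of their promoters. The 4 windows below are shown because their factors rose and because they hold the response-element letters searched for. The searched letters were TGATGNAA (the C/EBP-ATF response element bound by ATF4 with C/EBP partners), TGACGTCA (cyclic AMP response element), TGACGTGG (unfolded protein response element) and TGACTCA (AP-1 site), each on both strands, and the ER stress response elements I and II by their usual consensus. A looser search for element I, with any base in its last place, was added after the windows were seen; every exact match is also a match to it. Capitals mark every match.
DDIT3, chr12:57520468-57520767, minus strand: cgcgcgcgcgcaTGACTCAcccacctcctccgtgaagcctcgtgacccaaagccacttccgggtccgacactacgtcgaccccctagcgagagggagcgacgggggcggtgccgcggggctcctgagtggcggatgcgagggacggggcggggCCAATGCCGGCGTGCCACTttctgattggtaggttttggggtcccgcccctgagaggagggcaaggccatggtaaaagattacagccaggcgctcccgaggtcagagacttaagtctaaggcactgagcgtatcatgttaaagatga
ATF3, chr1:212565157-212565456, plus strand: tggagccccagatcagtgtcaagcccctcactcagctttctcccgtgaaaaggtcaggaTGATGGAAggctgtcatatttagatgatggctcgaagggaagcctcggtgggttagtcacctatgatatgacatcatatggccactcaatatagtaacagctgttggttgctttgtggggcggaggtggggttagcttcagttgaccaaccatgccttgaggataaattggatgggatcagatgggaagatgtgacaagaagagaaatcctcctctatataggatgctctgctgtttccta
CEBPG, chr19:33373863-33374162, plus strand: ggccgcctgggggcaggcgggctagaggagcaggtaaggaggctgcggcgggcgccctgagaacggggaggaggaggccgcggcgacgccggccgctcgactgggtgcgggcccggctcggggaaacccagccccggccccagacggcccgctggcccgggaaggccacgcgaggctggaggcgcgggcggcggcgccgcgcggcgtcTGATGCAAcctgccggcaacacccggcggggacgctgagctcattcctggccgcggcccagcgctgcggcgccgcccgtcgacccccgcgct
JDP2, chr14:75427772-75428071, plus strand: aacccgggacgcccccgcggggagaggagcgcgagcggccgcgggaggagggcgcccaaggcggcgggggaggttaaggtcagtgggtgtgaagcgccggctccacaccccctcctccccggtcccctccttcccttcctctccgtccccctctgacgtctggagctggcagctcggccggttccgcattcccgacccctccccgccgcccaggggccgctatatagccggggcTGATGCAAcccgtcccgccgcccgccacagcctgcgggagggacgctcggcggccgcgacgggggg

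TGATGNAA stood in windows of ATF3, CEBPG and JDP2, 3 of the 18 windows, against 3.62% of all 34943 windows. In CEBPG and JDP2 the letters were TGATGCAA, starting at positions -42 and -16 from the annotated start, and in ATF3 they were TGATGGAA, at position -191. The DDIT3 window held, as its match to the looser element I, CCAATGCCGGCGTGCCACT at position -97, a match found in 0.315% of all windows, and the AP-1 site letters at position -238. TGACTCA also stood in a window of ATF5, which fell, and in 4.96% of all windows. Element I was loosened after the windows were seen, so the 0.315% does not measure how unusual the DDIT3 match is. TGACGTCA, TGACGTGG and the exact ER stress response elements I and II stood in 0 of the 18 windows, against 1.84%, 0.73%, 0.0773% and 0.0544% of all windows in that order. These are matches of letters only, and binding was not measured. Sites more than 250 bases before a start lay outside the windows, so an absence holds for the windows alone. Which annotated start of a factor was used in these cells was not measured.

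ATF4, the activator at the centre of the response (ENSG00000128272.10; chromosome 22, 39915700 to 39918691, hg19), was the most abundant of the factors per length. Its level, in FPKM (a read count divided by the length of the gene and by the size of the library, here set by the spike-in RNA), was 200, 199 and 213 in DMSO replicates 1 to 3 and 375, 395 and 403 in NMS-873 replicates 1 to 3. Every treated library lay above every control library. The rise was 1.91-fold (95% interval 1.76 to 2.08, log2 fold change 0.94, SE 0.0598, limma adjusted p = 2.04e-37). In FPKM ATF4 gained 187, the second largest gain of the 10 after DDIT3. Among all genes tested, ranked by FPKM, it stood at 150 with DMSO and at 58 with NMS-873.

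ATF5, a relative of ATF4 that is likewise controlled at translation and is known for activating mitochondrial protein quality genes (ENSG00000169136.4; chromosome 19, 50431959 to 50437192), moved the other way. It was at 12.9, 12.8 and 13.5 FPKM with DMSO and at 9.05, 8.31 and 9.55 with NMS-873, with no overlap. The fall was 1.46-fold (95% interval 1.33 to 1.59, log2 fold change -0.54, SE 0.0652, limma adjusted p = 8.71e-14). ATF5 stood at 0.0632 to 0.0646 of the FPKM of ATF4 in the control libraries and at 0.0211 to 0.0241 in the treated ones. This ratio is taken within a library and does not depend on library scaling; its exact permutation p was 0.1, two-sided, the smallest that 3 against 3 libraries allow, as for each of the 8 ratios computed, and was 0.1 again after Benjamini-Hochberg adjustment over the 8.

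ATF3, a factor induced by many stresses (ENSG00000162772.12; chromosome 1, 212738676 to 212794119), rose from 4.27, 4.15 and 4.34 FPKM with DMSO to 68.4, 70.7 and 68.0 with NMS-873. The treated libraries lay close together and far above the controls. The rise was 16.2-fold (95% interval 15.0 to 17.5, log2 fold change 4.02, SE 0.0565, limma adjusted p = 1.43e-166) and ranked 5 among all genes tested. JDP2, a repressor that shares the bZIP region type of ATF3 (ENSG00000140044.8; chromosome 14, 75894419 to 75940814), was near ATF3 in the controls, at 4.73, 4.42 and 4.55 FPKM, and at 7.30, 8.20 and 7.83 with NMS-873. It rose 1.7-fold (95% interval 1.56 to 1.85, log2 fold change 0.77, limma adjusted p = 1.5e-25). The ratio of ATF3 to JDP2 was 0.902 to 0.954 in the control libraries and 8.62 to 9.38 in the treated ones.

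DDIT3 (ENSG00000175197.6; chromosome 12, 57910371 to 57914300) had the largest rise of all genes tested. It was at 7.35, 7.61 and 8.25 FPKM with DMSO and at 256, 276 and 270 with NMS-873. The groups lay more than 200 FPKM apart, and the coefficient of variation within a treatment, on normalised counts, was 5.98% with DMSO and 3.87% with NMS-873. The fold was 34.4 (95% interval 31.8 to 37.3, log2 fold change 5.11, SE 0.0588, limma adjusted p = 4.28e-187). Ranked by FPKM among the genes tested, DDIT3 went from 5518 to 108. It gained 259.7 FPKM, beside 187 for ATF4 and 64.8 for ATF3. On normalised counts, which are not divided by length, ATF4 gained 10266 and DDIT3 6685, so the order of these gains depends on dividing by length.

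CEBPB, an activator that pairs with ATF4 and with CHOP (ENSG00000172216.4; chromosome 20, 48807376 to 48809212), was at 12.9, 13.3 and 14.1 FPKM with DMSO and at 37.4, 39.3 and 43.1 with NMS-873. It rose 2.97-fold (95% interval 2.73 to 3.23, log2 fold change 1.57, SE 0.0615, limma adjusted p = 8.54e-70). CEBPG, a short C/EBP protein without an activation domain and a known partner of ATF4 (ENSG00000153879.4; chromosome 19, 33864236 to 33873592), was at 14.6, 13.8 and 15.1 FPKM and at 32.4, 34.8 and 35.7. It rose 2.36-fold (95% interval 2.19 to 2.55, log2 fold change 1.24, SE 0.0549, limma adjusted p = 1.44e-60). For both, every treated library lay above every control library. The ratio of CEBPB to CEBPG was 0.883 to 0.962 with DMSO and 1.13 to 1.21 with NMS-873.

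CEBPD, a C/EBP factor best known from inflammation and fat cell differentiation (ENSG00000221869.4; chromosome 8, 48649471 to 48651648), was near the limit of what these libraries measure. It had 31, 28 and 20 reads with DMSO and 20, 13 and 17 with NMS-873. Per library size, NMS-873 replicate 1 lay above DMSO replicate 3, so the groups overlapped. The log2 fold change was -0.61 (95% interval -1.12 to -0.09, limma adjusted p = 0.0437), against an adjusted p of 0.216 in the authors' deposited table. The call was lost without limma's variance trend (adjusted p = 0.0698) and without DMSO replicate 1 (adjusted p = 0.23), DMSO replicate 2 (adjusted p = 0.105) or NMS-873 replicate 2 (adjusted p = 0.202). It was also lost under each of the other scalings and without the count minimum, and its adjusted p over all alternatives ran from 0.0199 to 0.266.

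The other C/EBP genes were not expressed at a measurable level: CEBPA had 2 reads and CEBPE 0 reads over the 6 libraries, where 0 reads allow up to 3. The C/EBP family transcripts, summed in FPKM over CEBPA, CEBPB, CEBPD, CEBPE, CEBPG and DDIT3, came to 35.4, 35.3 and 37.9 in DMSO replicates 1 to 3 and to 326, 351 and 349 in NMS-873 replicates 1 to 3. DDIT3 made up 21.3% ± 0.534 of this sum with DMSO and 78.2% ± 0.795 with NMS-873 (SD, n = 3 libraries each), a difference of 56.8 percentage points (exact permutation p = 0.1, two-sided, the smallest possible with 3 against 3). CEBPG fell from 40.1% to 10.0% of the sum and CEBPB from 37.0% to 11.7%, although the level of each rose. With DMSO DDIT3 was at 0.572 to 0.584 of the FPKM of CEBPB, and with NMS-873 at 6.25 to 7.03 times it. Transcript shares are not protein shares, which were not measured here.

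**Figure D2:**
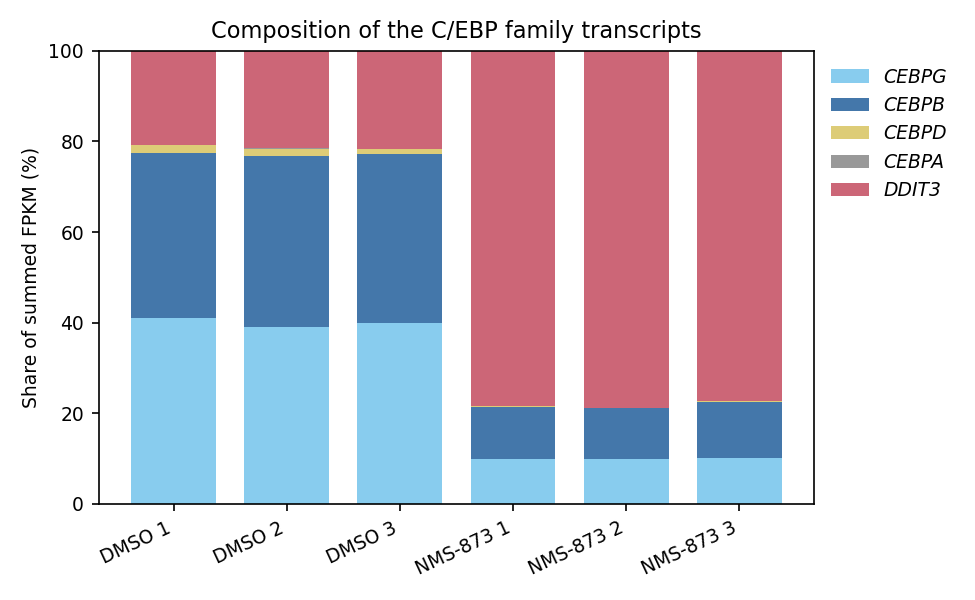
Each bar is 1 library and shows the share of the summed C/EBP family FPKM (y axis, percent) held by each gene; CEBPE had no read and CEBPA is too low to be seen. DDIT3 holds 20.7% to 21.7% of the bar in the 3 DMSO libraries and 77.3% to 78.8% in the 3 NMS-873 libraries.

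NFIL3, a bZIP repressor that competes with the PAR bZIP factors DBP, TEF and HLF for the same DNA sites (ENSG00000165030.3; chromosome 9, 94171327 to 94186144), was at 8.85, 7.87 and 9.08 FPKM with DMSO and at 28.5, 28.5 and 30.6 with NMS-873. It rose 3.39-fold (95% interval 3.11 to 3.71, log2 fold change 1.76, SE 0.0649, limma adjusted p = 9.03e-75), which among the 10 factors was exceeded by DDIT3 and ATF3 and which ranked 73 among all genes tested. The PAR bZIP factors were all lower with NMS-873. DBP fell 2.55-fold from 114 ± 7.96 to 44.2 ± 3.49 normalised counts, TEF fell 1.63-fold from 1212 ± 50.4 to 745 ± 26.4, and HLF, singled out once its value was known, fell 2.12-fold from the low level of 14.8 ± 2.29 to 6.67 ± 2.45 (limma adjusted p = 3.74e-16, 1.87e-23 and 0.00887).

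NUPR1, a stress-induced chromatin protein and known ATF4 target (ENSG00000176046.7; chromosome 16, 28548606 to 28550495), was at 13.4, 12.9 and 13.6 FPKM with DMSO and at 27.6, 27.4 and 29.6 with NMS-873. The groups did not overlap. It rose 2.12-fold (95% interval 1.92 to 2.34, log2 fold change 1.08, SE 0.0724, limma adjusted p = 6.18e-35).

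Compared as levels per length, the factors changed order. With DMSO, ATF4 stood alone at 204 ± 8.01 FPKM (SD, n = 3). CEBPG, CEBPB, NUPR1 and ATF5 followed at 13.1 to 14.5 FPKM, each overlapping the next in that order, then NFIL3 and DDIT3, which overlapped at 8.60 and 7.74, then JDP2, ATF3 and CEBPD, each apart from its neighbour. With NMS-873 DDIT3 was second at 267 ± 10.4 FPKM and ATF3 next at 69.1 ± 1.42, both apart from their neighbours, and NFIL3 and NUPR1 were the only neighbours to overlap. The summed FPKM of the 10 went from 276 to 296 in the control libraries to 843 to 897 in the treated ones. ATF4 held 71.8% of the sum with DMSO and 44.6% with NMS-873, and DDIT3 2.72% and 30.5%.

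**Figure D3:**
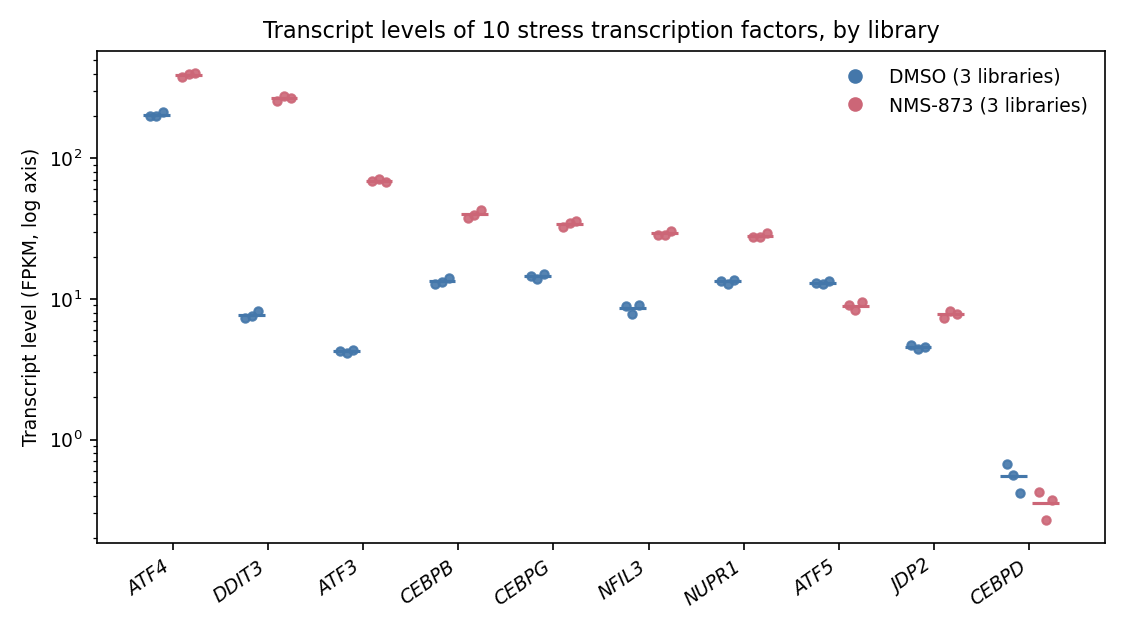
Each point is the FPKM of 1 library on a log axis, blue for DMSO and red for NMS-873, and each bar is the mean of the 3 libraries of a treatment; genes are ordered by their level with NMS-873. The treated points lie above the control points for 8 factors, below them for ATF5, and overlap them for CEBPD.

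The spans of some factors overlap those of other genes in the deposited coordinates, and whether counting used strand was not given in the sources used here, so the shared parts are uncertain. MARS, which encodes methionyl-tRNA synthetase and lies on the opposite strand, overlaps DDIT3 by 982 bases; it rose 1.18-fold, from 7416 ± 227 to 8725 ± 109 normalised counts. MIR616 lies inside DDIT3 on the same strand, and its row went from 2.30 ± 1.51 to 40.6 ± 7.01 normalised counts. NUP62, a nucleoporin gene, overlaps ATF5 by 1062 bases on the opposite strand, or 20.3% of the ATF5 span, and fell 1.29-fold, from 2375 ± 14.6 to 1838 ± 39.1 normalised counts. IL4I1, CTC-326K19.6 and MIR4751 also overlap ATF5, at mean normalised counts of 8.66, 0 and 0. RN7SL512P, which overlaps ATF3, had no read, and RP11-293M10.6 shares 26 bases with JDP2 and was at 68.6 ± 3.25 and 69.2 ± 5.31 normalised counts.

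Within 100 kb of the 10 factors, 41 other genes were tested, and 7 of them rose and 12 fell, shares near the 14.9% and 33% of all genes. Of the nearest tested genes that overlap no factor, 1 on each side where there was one, MBD6, 193 bases from DDIT3, rose 1.18-fold, TBC1D17, beside ATF5, rose 1.20-fold and CCDC101, beside NUPR1, rose 1.18-fold. MIEF1 beside ATF4, PEPD beside CEBPG and GLI1 beside DDIT3 fell, at log2 fold changes of -0.19, -0.18 and -0.40 (limma adjusted p = 0.00134, 0.00799 and 2.18e-05), with groups that did not overlap. All calls of neighbours are on the deposited scale. Scaling to the genes moved the median gene up by 0.10 (log2), and neighbours were not counted under it, so their small falls may depend on the scaling. RPS19BP1 beside ATF4, VRK3 beside ATF5, BATF3 beside ATF3, TMEM189 and RP11-290F20.3 beside CEBPB, SPIDR and PRKDC beside CEBPD, AUH beside NFIL3 and CLN3 beside NUPR1 did not pass, with adjusted p between 0.0883 and 0.882. INHBE, an activin subunit gene 57308 bases from DDIT3 and named after its value was seen, rose 3.7-fold, from 46.0 ± 7.81 to 171.5 ± 2.20 normalised counts.

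Upstream of ATF4, 15 genes of eIF2 phosphorylation and its reversal were tested. Of these 5 rose, 2 fell and 8 did not pass, beside 14.9% higher and 33% lower among all genes. Their log2 fold changes had a median of -0.02. With gene-based scaling 8 rose and 2 fell, beside 3760 of all 14889 genes higher and 3108 lower with that scaling. EIF2AK3, which encodes the ER-resident kinase PERK, rose 5.72-fold, from 592 ± 46.7 to 3385 ± 49.5 normalised counts. PPP1R15A, which is also on the target list described next, the CHOP-induced subunit that directs a phosphatase to eIF2, rose 4.72-fold, and DNAJC3, an inhibitor of eIF2 kinases and ER co-chaperone, rose 4.32-fold. PPP1R15B and NCK1 rose 1.29-fold and 1.28-fold. The kinases EIF2AK1, EIF2AK2 and EIF2AK4 did not pass, at -0.06, 0.12 and -0.08 on the log2 scale (singled out once their values were known), and the 2 that fell were subunits of the exchange factor eIF2B, EIF2B1 and EIF2B5, at -0.22 and -0.20.

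The reported targets of ATF4 and CHOP listed here rose almost throughout. Like the other gene lists and the 10 factors, this list was chosen with earlier results of these data known. Its counts describe the listed genes and are no independent test of whether targets rise. Of 43 tested, 41 rose and 1 fell, beside the same 14.9% and 33% of all genes, and the median was 0.97 on the log2 scale beside -0.10 for all genes, and 20 rose at least 2-fold, against 1.64% of all genes. DDIT4, an inhibitor of mTORC1 signalling, rose 17.9-fold, SESN2, a stress-induced regulator of the same pathway, 11.8-fold, and DNAJB9, an ER co-chaperone that is better known as a target of XBP1, 13.0-fold. The member that fell was BCL2L11, which encodes the cell death protein BIM, at a log2 fold change of -0.23 with overlapping groups, from 301 ± 26.4 to 257 ± 24.7 normalised counts; the call was lost with gene-based scaling and without DMSO replicate 1, DMSO replicate 3, NMS-873 replicate 1 or NMS-873 replicate 2. ERO1L, an ER oxidase often listed as a CHOP target and named after its value was seen, did not pass (log2 fold change 0.08, limma adjusted p = 0.233).

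Of 44 other bZIP factors 36 were tested, and 19 rose, 6 of them at least 2-fold, and 6 fell, 2 of them at least 2-fold, beside 14.9% higher and 33% lower among all genes; the median log2 fold change was 0.20. XBP1, the factor of the IRE1 branch of the unfolded protein response, rose 3.79-fold, from 2251 ± 92.0 to 8530.2 ± 230 normalised counts. MAFF, a small MAF protein, rose 3.29-fold, and CREB3L2, an ER-anchored factor cleaved in the manner of ATF6, rose 2.43-fold. MAF fell 1.58-fold, from 243 ± 13.3 to 154 ± 12.6 normalised counts.

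Mitochondrial chaperones and proteases, the class of genes that ATF5 is known to activate, were tested in 16 cases, of which 5 rose and 3 fell, beside 14.9% higher and 33% lower among all genes. Their median was 0.03 (log2). With gene-based scaling 9 rose and 0 fell, beside 3760 of all 14889 genes higher and 3108 lower with that scaling. On the deposited scale, without DMSO replicate 1 or DMSO replicate 3 only 1 fell. GRPEL2, a nucleotide exchange factor of the mitochondrial HSP70, rose 2.35-fold, from 855 ± 21.2 to 2013 ± 88.8 normalised counts. TIMM17A, HSPA9, GRPEL1 and LONP1 rose between 1.11-fold and 1.31-fold, and HTRA2, HSPE1 and OMA1 were at -0.17, -0.21 and -0.27 (log2).

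**Figure D4:**
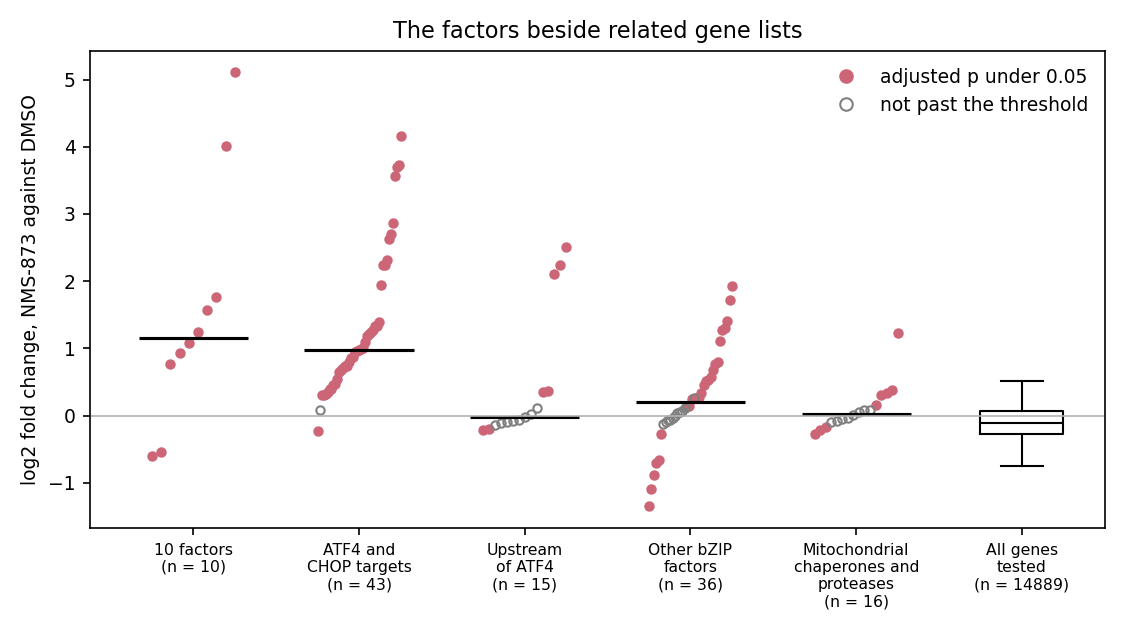
Each point is the log2 fold change (y axis) of 1 tested gene in the 10 factors and in 4 gene lists, filled where it passed the threshold; black bars are medians, and the box at the right gives the quartiles of all genes tested with whiskers at the 5th and 95th percentiles. The medians are 1.16 for the 10 factors, 0.97 for the ATF4 and CHOP targets, -0.02 upstream of ATF4, 0.20 for other bZIP factors and 0.03 for the mitochondrial list.

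The genes most like DDIT3 over the 6 libraries, by the Euclidean distance between log2 profiles centred on the control mean, were RP11-325K4.3, DDIT4 and HERPUD1, at distances of 1.35, 1.64 and 1.67. RP11-325K4.3 lies inside HERPUD1 on the same strand, so reads of the 2 may be shared, and HERPUD1 organises ER-associated degradation. Those most like ATF5 were MDGA1, KIF18A, a mitotic kinesin, and SYNPO, at 0.0452, 0.0577 and 0.0637. With only 2 treatments such likeness reflects mainly the size of the change.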

How the data were processed

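The members and the gene lists were chosen with earlier results of these data known. The deposited table holds 57912 rows, 92 of them ERCC spike-in transcripts. Its 6 sample columns hold FPKM values made by the authors. The table also holds the deposited mean normalised count per gene (a signal in units of scaled reads), the deposited log2 fold change, and the deposited adjusted p-value of the authors' own comparison. The submitters' processing notes name the hg19 build, featureCounts 1.5.1 among the tools, and also DESeq2 1.16.1. No aligner was named in the sources used here.

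The design assumed normalised counts, so these were rebuilt by scaling each gene's FPKM to its deposited mean; multiplied by the library's size factor, 100% of values came within 0.001 of a whole read. Those factors match a median-of-ratios estimate from the spike-in rows. Genes averaging 10 or more normalised counts were tested on the log2(normalised count + 1) scale with limma 3.58.1 (R 4.3.3); the model held treatment alone, with a variance trend, two-sided, with Benjamini-Hochberg adjustment. The prior variance had 250.8 degrees of freedom, so the spread of a gene was set mostly by genes of similar level, and adjusted p-values far below 0.001 rest on that; without the trend those of the 9 members other than CEBPD lay between 6.87e-07 and 0.00186. On simulated data of 14889 genes, 88% of 1.5-fold and 100% of 2-fold rises were recovered. The changes were placed in 50 genes per fold, far fewer than passed here, all with mean counts above the minimum tested. Every simulated gene had the same relative spread beyond counting noise. Recovery of genes near that minimum was therefore not measured. Libraries of a treatment differed by more than sampling noise (chi-square per degree of freedom 1.53 to 7.81). The highest values, 7.36 and 7.81, were those of NMS-873 replicate 1 against replicates 2 and 3. NMS-873 replicates 2 and 3 gave 1.79, and the DMSO pairs 1.53 to 3.63. Reads carry no molecular identifiers, so the limit given for a count of 0 covers counting error only.

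Named genes were the members, genes overlapping them, CEBPA and CEBPE, the nearest tested neighbour on each side of a member within 100 kb, up to 3 genes per list and direction with the lowest adjusted p (all where 5 or fewer passed), and the 3 nearest profiles to DDIT3 and ATF5. INHBE, HLF, ERO1L, EIF2AK1, EIF2AK2, EIF2AK4 and the cell type markers that did not pass were named outside this rule, after their values were seen. Alternatives were other scalings, pseudocounts, count minimums, log2(FPKM + 0.1), no variance trend, voom, a replicate block and leaving out each library.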

Additional observations from a re-analysis of the deposited data

How the results depend on the processing

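The 8 rises were called under all 17 alternatives, as was the fall of ATF5, with log2 fold changes of 5.07 to 5.21 for DDIT3, 3.99 to 4.12 for ATF3, 0.92 to 1.04 for ATF4 and -0.59 to -0.44 for ATF5. The number of factors that fell was 1 with gene-based factors, equal totals, quantile normalisation, no count minimum, a minimum of 50 (which leaves CEBPD untested) or no variance trend, because CEBPD was no longer called, and 1 to 2 when 1 library was left out. With gene-based factors 3760 genes rose and 3108 fell in all, 8 upstream genes rose, 0 targets fell, and 9 mitochondrial genes rose and 0 fell. With equal totals and with quantile normalisation 4 upstream genes fell. With quantile normalisation, log2(FPKM + 0.1) or no variance trend 0 targets fell, and without the trend 1 mitochondrial gene fell. Leaving out 1 library gave 0 to 1 falling targets (0 without DMSO replicate 1, DMSO replicate 3, NMS-873 replicate 1 or NMS-873 replicate 2) and 1 to 3 falling mitochondrial genes (1 without DMSO replicate 1 or DMSO replicate 3). The DDIT3 share of C/EBP transcripts rose by 49.1 percentage points on normalised counts not divided by length, and by 56.5 to 57.3 when 1 library was left out.

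The replicate numbers are shared between treatments, but the libraries of a number did not deviate together (correlations of 0.04, -0.03 and 0.04 across genes), and not every library correlated best with its own number. With the replicate block 8 factors rose and 2 fell, as without it, and 2352 genes rose and 5255 fell in all. CEBPD had 13 to 31 reads per library; no alternative varied depth.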
